A study of Mus musculus with 20 samples.

Results

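Imprinted genes outside the Prader-Willi region were followed in the hypothalamus of mice that lack a part of that region. They were chosen as a list of 36 genes, all of which were found among the 53801 genes of the count tables, and 34 of them had enough counts to be tested. The libraries hold total RNA of mouse hypothalamus after depletion of ribosomal RNA. The WT groups are C57BL/6J mice, and the KO groups are mice with a deletion of both Necdin (Ndn) and Magel2, called double KO or MADIN in the labels and a knockdown in their genotype field. Each genotype was sampled 6 h after light on (WT_day, KO_day) and 18 h after light on (WT_night, KO_night) under 12-h light and 12-h dark cycles, with 5 libraries in each of the 4 groups and no further treatment. The labels give no age or sex, no genetic background for the KO mice, and nothing that says the libraries come from separate animals, so a p-value measures the spread between these samples, which may in part be technical. The titles of WT_day 4 and WT_day 5 carry the same sample name, so whether these are separate animals is not known. KO_day 5 was placed by the time field of its labels, and the other libraries were placed by their titles. All groups had free access to food.

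An imprinted gene is transcribed mainly from the copy inherited from a single parent. The choice is set by DNA methylation that is laid down in the egg or the sperm at imprinting control regions, each of which governs a cluster of neighbouring genes, often through a long noncoding RNA that silences its neighbours on the same chromosome. Many imprinted genes are active in the hypothalamus, where they act on feeding, growth, body temperature and maternal care. Of the 36 listed genes 18 are known to be expressed from the paternal allele and 11 from the maternal allele, and in the remaining 7 the allele depends on the isoform or the tissue. Reads were counted per gene, so the parental alleles and the isoforms of a gene were not separated here.

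The sequence before the start site is shown for the listed genes that passed a test in any comparison and had an entry in the RefSeq promoter table (build GRCm38.p6). Each run is the 250 bases upstream of the start, 5′ to 3′ on the strand of the gene, with every CG dinucleotide, the site of imprinting methylation, in capitals.
Dlk1: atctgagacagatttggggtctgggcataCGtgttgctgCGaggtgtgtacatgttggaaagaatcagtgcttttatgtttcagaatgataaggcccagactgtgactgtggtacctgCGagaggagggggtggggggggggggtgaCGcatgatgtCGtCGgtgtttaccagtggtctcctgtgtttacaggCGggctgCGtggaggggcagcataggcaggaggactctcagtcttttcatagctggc
Calcr: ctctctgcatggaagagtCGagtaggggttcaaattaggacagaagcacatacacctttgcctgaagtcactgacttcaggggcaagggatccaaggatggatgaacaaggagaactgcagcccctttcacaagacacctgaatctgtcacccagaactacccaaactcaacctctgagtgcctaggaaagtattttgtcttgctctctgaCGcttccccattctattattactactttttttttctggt
Inpp5f: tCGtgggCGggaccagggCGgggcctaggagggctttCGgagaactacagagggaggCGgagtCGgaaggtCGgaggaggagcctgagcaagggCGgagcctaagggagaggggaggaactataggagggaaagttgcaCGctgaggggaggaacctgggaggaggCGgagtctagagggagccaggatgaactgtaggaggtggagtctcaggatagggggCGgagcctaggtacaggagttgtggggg
Kcnq1ot1: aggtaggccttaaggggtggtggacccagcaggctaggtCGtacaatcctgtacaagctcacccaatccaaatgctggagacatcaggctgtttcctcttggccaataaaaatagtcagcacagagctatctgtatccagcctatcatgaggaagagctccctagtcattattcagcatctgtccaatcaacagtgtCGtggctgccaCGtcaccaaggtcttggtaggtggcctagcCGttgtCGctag
Airn: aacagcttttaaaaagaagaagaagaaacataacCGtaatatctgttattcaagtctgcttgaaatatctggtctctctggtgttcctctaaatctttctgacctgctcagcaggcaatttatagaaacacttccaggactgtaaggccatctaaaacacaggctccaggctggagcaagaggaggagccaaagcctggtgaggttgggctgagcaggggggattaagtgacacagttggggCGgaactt
The window of Dlk1 is chr12:109452573-109452822 on the plus strand, and that of Calcr is chr6:3764714-3764963 on the minus strand. Inpp5f lies at chr7:128611115-128611364 (plus), Kcnq1ot1 at chr7:143296548-143296797 (minus) and Airn at chr17:12741061-12741310 (plus). The Inpp5f window holds 11 CG dinucleotides and the Dlk1 window 8, numbers that 35.6% and 43.0% of the 32851 windows in the table reach. Those of Calcr and Airn hold only 2 each, which 81.2% of windows reach. The window of Kcnq1ot1 has 5 CG dinucleotides (55.6% of windows) and 3 copies of CCAAT, searched on both strands, where 33.8% of windows hold at least 1 copy. No copy of CCAAT can overlap a CG. Windows were found for 27 of the 36 genes, 42 windows in all with alternative starts, and 26 of the 42 (61.9%) held at least 10 CG dinucleotides, against 37.8% of all windows.

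A promoter shared by a pair of listed genes lies between the start sites of Peg3 and Usp29, which are transcribed away from each other from the paternal allele. It is printed on the plus strand, from Peg3 towards Usp29 (chr7:6730420-6730582), because the values of both neighbours are given further on.
Peg3 to Usp29: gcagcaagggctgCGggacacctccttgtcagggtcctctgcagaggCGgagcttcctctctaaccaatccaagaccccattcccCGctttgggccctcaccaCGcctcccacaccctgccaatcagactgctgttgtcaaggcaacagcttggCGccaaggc
These 163 bases hold 5 CG dinucleotides, as many as 47.0% of equally long stretches before other starts, and 2 copies of CCAAT on either strand.

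Totals ran from 32066289 to 48697647 counts per library. In 6 libraries (WT_night 1, KO_day 1 and 2, KO_night 1, 2 and 3) the title and the time field of the labels give opposite times, and the title was used. The library labelled WT_day 3 goes against its genotype label: Ndn stood at 31.0 scaled CPM (CPM from library totals scaled between libraries), 11.3% of the mean over the 9 remaining WT libraries (239 to 346), and Magel2 at 12.4% of theirs. In KO, Ndn lay between 0.248 and 1.01 and Magel2 between 0 and 0.182. Markers of hypothalamic neurons summed to 766 to 1263 scaled CPM over the libraries, with 11 of 12 above 1 and Kiss1 at 0 counts in all 20. Markers of other tissues were present too: thalamic markers summed to 415 to 714, meningeal and fibroblast markers summed to 31.5 to 138, choroid plexus markers to 51.1 to 76.4 (Ttr, Folr1 and Aqp1 below 1), and pituitary markers to 6.03 to 785, the highest in WT_day. In bulk tissue, fewer cells of a type and less RNA per cell cannot be told apart.

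Scaled CPM per kilobase of exon differed widely between the listed genes and little between libraries. The counts may also hold reads from outside exons, since outer genes took up counts of genes inside them, as given below. Exonic length may then be the wrong divisor. Copg2 ranked 8 of the 36 listed genes by exonic length but 19 by gene span, and Trappc9 15 but 30. The highest levels were those of Nap1l5, a nucleosome assembly protein gene, at 436 scaled CPM per exonic kb, Nnat, the gene of the membrane protein neuronatin, at 223, Blcap at 144, Impact, an inhibitor of the stress kinase GCN2, at 135, and Peg3, a zinc finger gene, at 76.9. The value of Blcap is no separate level, since its counts ran with those of Nnat, as given below. Gnas, which encodes the stimulatory G protein alpha subunit, stood at 68.9 and the long noncoding RNA Meg3 at 56.0. Gm20721 lies inside Gnas on the opposite strand, and its count was 0.880 to 0.905 times that of Gnas over the libraries. Reads of either gene may be part of the value of the other. At the low end were the cell cycle inhibitor Cdkn1c at 1.92, Commd1 at 0.201, the noncoding RNA H19 at 0.113 and Dio3, which encodes the enzyme that inactivates thyroid hormone, at 0.107. Over all 20 libraries the highest value was 1.14 times the lowest for Grb10, an adaptor that restrains insulin signalling, 1.16 times for Igf2r, 1.21 times for Peg3 and Rian, and 1.80 times for Kcnq1ot1. The plot of levels per kilobase shows the groups nearly on top of each other for all but the lowest genes.

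**Figure D1:**
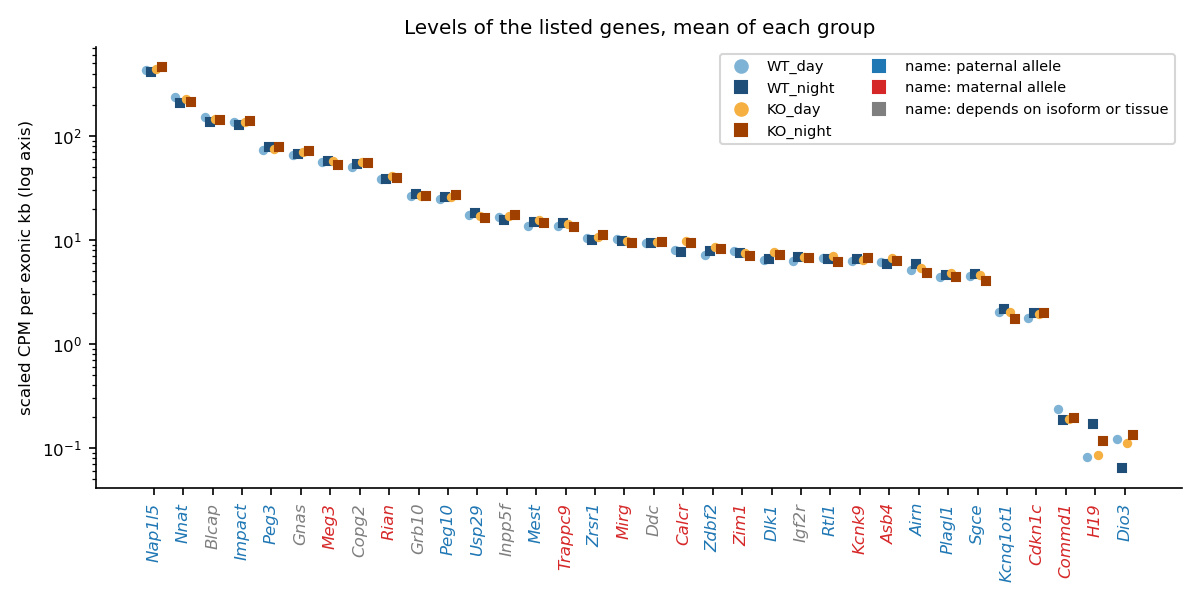
Mean scaled CPM per exonic kb (log axis) of the 34 listed genes with counts, in each of the 4 groups (5 libraries each), ordered by level, with names coloured by expressed allele. The 4 group means lie close together from Nap1l5 at 436 down to Cdkn1c at 1.92, and spread apart for Commd1, H19 and Dio3.

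Igf2, the growth factor gene, and Peg13, a noncoding RNA, were listed at 0 counts in all 20 libraries, where 3 counts would be 0.0619 to 0.0913 scaled CPM. This is no measure of their expression. The whole of Peg13 lies inside Trappc9 on the same strand, and nearly the whole of Igf2 lies inside Gm49394 on the same strand. Of the 63 annotated genes that lie inside a listed gene on the same strand 62 (98.4%) had 0 counts in every library, against 5 of 27 (18.5%) of those on the opposite strand. Commd1 was left with 45.6 counts on average, since 99.7% of its span is shared with Gm28048 on the same strand. Its level is therefore that of a small remainder, not of the gene.

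Of the 4 listed genes that lie wholly inside another gene on the opposite strand, 3 had counts that ran together with those of the outer gene, and Zrsr1 in Commd1, of which only a remainder was counted, did not (ratio 0.0179 to 0.0345). Nnat lies within Blcap on the other strand, and the count of Blcap was above that of Nnat in 20 of 20 libraries, by 1.047 to 1.12 times, with the excess at 25.0 ± 2.81 scaled CPM by day and 30.0 ± 5.66 at night in WT, and at 26.9 ± 5.78 by day and 38.5 ± 6.38 at night in KO (SD, n = 5). Nap1l5 lies within Herc3, whose count was 1.12 to 1.15 times that of Nap1l5 in every library. Kcnq1ot1 lies within Kcnq1, the potassium channel gene of its cluster, and the ratio of their counts was 0.982 to 1.01. The counts of Blcap and Kcnq1 thus moved with those of the genes inside them and give no separate measure of the outer gene. Other listed genes with a partner on the opposite strand are Airn and Igf2r (40.8% of the span of Airn), Mest and Copg2, Ddc and 1700042O10Rik, Gnas and Gm20721, Cdkn1c and Gm44732 (32.9% of the span of Cdkn1c), Meg3 and Gm26906 (10.1%), Usp29 and Zim3, and Trappc9 and Gm49460 (3.63%). Rtl1 faces 6 microRNA genes that were listed with counts (Mir127, Mir136, Mir431, Mir432, Mir433 and Mir434), and whether these are reads of Rtl1 was not tested. Plagl1, Mirg, H19 and Zdbf2 have such a partner with 21.3 counts or fewer per library on average. The share of the span does not give the size of this. The mean count of Gm20721 was 0.896 times that of Gnas, and that of Zim3 was 0.529 times that of Usp29. Gm44732 had 0.529 times the count of Cdkn1c, and 1700042O10Rik 0.298 times that of Ddc. How many reads such genes share was not measured, so the counts of all these genes are uncertain.

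**Figure D2:**
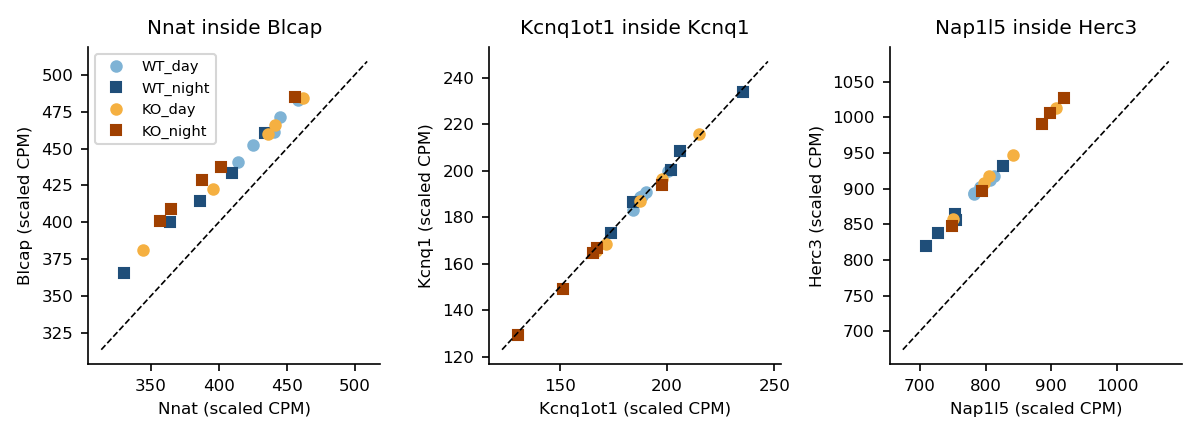
Scaled CPM of an outer gene against the gene that lies inside it on the opposite strand, 1 point per library, with the line of equality dashed. Blcap lies a little above Nnat in all 20 libraries, Kcnq1 lies on the line with Kcnq1ot1 (ratio 0.982 to 1.01), and Herc3 lies at 1.12 to 1.15 times Nap1l5.

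Which of these genes differ between KO and WT, averaged over day and night? Calcr, the maternally expressed calcitonin receptor gene, and Dlk1, a paternally expressed membrane protein of the Notch ligand family, rose in KO. In all, 2 of the 34 tested genes (5.88%) passed, where 1.31% of the 22181 genes tested did, and 20 of 34 were higher in KO, against 49.6% of all genes. With DESeq2 Sgce and Inpp5f passed too, 4 in all, where 4.72% of all genes did. The median change was 0.04 on the log2 scale, against -0.00126 for all genes. A gene passed at an edgeR adjusted p under 0.05, adjusted over all genes tested, and changes are log2 values ± standard error.

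Calcr (ENSMUSG00000023964, chromosome 6, 3685680 to 3764714 in GRCm38) encodes the receptor for calcitonin and, with accessory proteins, amylin, a satiety hormone. Its scaled CPM was 31.6, 34.2, 36.03, 28.3 and 26.3 in WT_day libraries 1 to 5 and 31.98, 28.7, 29.7, 31.6 and 28.2 in WT_night. In KO_day it was 34.8, 37.7, 37.1, 42.0 and 38.2, and in KO_night 35.96, 31.5, 37.2, 35.1 and 41.8. The KO values were mostly above the WT values, with KO_day 1 and KO_night 1, 2 and 4 inside the WT range, whose upper end, 36.03, was the library labelled WT_day 3. The change was 0.28 ± 0.0539 (1.21-fold, edgeR adjusted p = 0.0194). It was 0.28 ± 0.0759 by day (adjusted p = 0.154) and 0.27 ± 0.0765 at night (adjusted p = 0.0273). The averaged call held without each library in turn (change 0.25 to 0.31) and when libraries with conflicting time labels were left out, but not without WT_night 1, 2 and 3 (change 0.28, adjusted p = 0.131).

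Dlk1 (ENSMUSG00000040856, chromosome 12, 109452823 to 109463336) is the paternally expressed protein-coding gene at one end of the Dlk1-Dio3 cluster, known in the hypothalamus for its link to the timing of puberty. It stood at 38.2, 34.7, 36.7, 37.6 and 34.7 scaled CPM in WT_day. It was at 34.2, 35.2, 37.9, 41.6 and 38.6 in WT_night, at 43.5, 35.3, 47.7, 45.2 and 46.0 in KO_day and at 37.7, 41.7, 40.5, 41.3 and 43.4 in KO_night. In KO_day 4 of the 5 libraries lay above every WT library, and KO_day 2, whose time labels conflict, lay among the lowest. The averaged change was 0.19 ± 0.0464 (1.14-fold, edgeR adjusted p = 0.0417). Its adjusted p ran from 0.00403 to 0.0922 over the fits without 1 library, and 13 of those 20 fits did not pass, the one without the library labelled WT_day 3 among them. Beside these changes, markers of hypothalamic neurons were higher in KO in 9 of 11 (2 rose) and oligodendrocyte and astrocyte markers in 6 of 6 each (1 and 0 rose). Meningeal markers were lower in 9 of 9 (0 fell), choroid plexus markers in 7 of 8 (1 fell), pituitary markers in 7 of 8 (0 fell) and blood markers in 3 of 3 (1 fell). These averages did not all hold at each time. By day meningeal markers were higher in KO in 8 of 9 (median change 0.18), choroid plexus markers in 4 of 8 and pituitary markers in 1 of 8. Higher by day were also 7 of 11 hypothalamic neuron, 5 of 6 oligodendrocyte, 4 of 6 astrocyte and 0 of 3 blood markers. At night pituitary markers were higher in 5 of 8. The part of any of these in the changes of Calcr and Dlk1 was not tested.

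**Figure D3:**
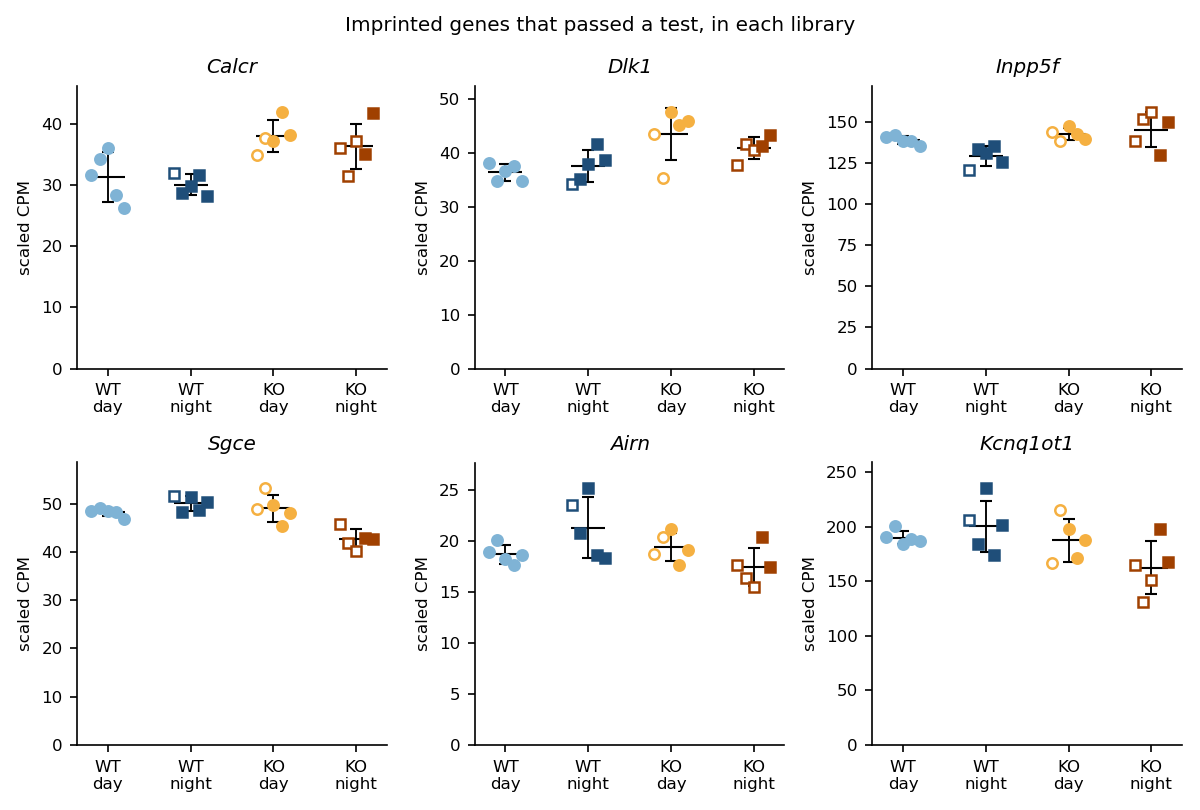
Scaled CPM of the 6 listed genes that passed in any comparison, 1 point per library (open points: libraries whose title and time field disagree), with the group mean and SD (n = 5). Calcr and Dlk1 lie higher in both KO groups, while Sgce, Airn and Kcnq1ot1 are lowest and Inpp5f is highest, on average, in KO_night.

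Among the listed genes that passed in no comparison, the averaged changes of largest size were those of Dio3 at 0.47 ± 0.308 (adjusted p = 0.408), H19 at -0.22 ± 0.307 (0.738) and Zdbf2 at 0.15 ± 0.0516 (0.109), all by edgeR. Zdbf2, a paternally expressed zinc finger gene whose loss in mice is known to reduce feeding in newborns, stood at 92.1, 90.5, 96.8, 85.9 and 90.7 scaled CPM in WT by day and at 96.3, 94.9, 104, 101 and 104 at night. In KO it stood at 90.8, 97.3, 127, 109 and 113 by day and at 101, 103, 103, 94.2 and 123 at night. Its groups overlapped at both times. At night Dio3 gave 1.04 ± 0.461 (edgeR adjusted p = 0.133) and H19 -0.51 ± 0.400 (0.412). Dio3 and H19 had only 8.45 and 10.5 counts per library on average, which makes both values imprecise.

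By day 25 of the 34 tested genes were higher in KO than in WT, against 47.8% of all genes, with a median change of 0.04. None of the 34 passed with edgeR, where 0.113% of all genes did, while 8 had an unadjusted p under 0.05 (9.62% of all genes did) and 2, Calcr and Dlk1, passed with DESeq2 (0.857% of all genes). The smallest edgeR adjusted p values belonged to Dlk1 at 0.26 ± 0.0654 (0.110), Calcr (0.154), Mest at 0.18 ± 0.0522 (0.176) and Zdbf2 at 0.24 ± 0.0730 (0.222). Mest, a paternally expressed gene of a hydrolase-like protein, was at 52.9 to 54.4 in WT_day and 56.6 to 64.2 in KO_day. Its neighbour Copg2, a coat protein subunit gene, was at 245 to 261 and 265 to 321 (change 0.16 ± 0.0598, edgeR adjusted p = 0.334). The groups did not overlap for either gene, but neither passed. How many of all genes separate in this way was not counted, so the separation adds no evidence. Mest and Copg2 are transcribed towards each other and overlap at their ends, so their counts may not be separate measures. When the 6 libraries with conflicting time labels were left out, Dlk1 passed by day (0.35, adjusted p = 0.00802), as did Zdbf2 (0.35, adjusted p = 0.0437).

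At night 5 of the 34 tested genes (14.7%) passed, close to the 11.9% of all genes that did at this time, and with DESeq2 8 passed, where 15.9% of all genes did. Sgce, Airn and Kcnq1ot1, all known to be expressed from the paternal allele, fell, while Calcr and Inpp5f rose. Of the 16 tested paternally expressed genes 3 fell and 0 rose, of the 11 maternally expressed genes 1 rose and of the 7 others 1 rose. Among all genes 5.18% rose and 6.77% fell. The median change of the 34 was 0.03 (all genes 0.01), and 19 were higher in KO.

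Sgce (ENSMUSG00000004631, chromosome 6, 4674350 to 4747207) encodes epsilon-sarcoglycan, a membrane protein whose paternal loss causes a myoclonic dystonia in people, and shares its control region with Peg10, from which it is transcribed away. It stood at 51.5, 48.2, 51.4, 48.7 and 50.4 scaled CPM in WT_night and at 45.8, 41.9, 40.1, 43.0 and 42.8 in KO_night. All 5 KO_night libraries were below all WT_night libraries, and how many of all genes separate in this way was not counted. By day Sgce stood at 48.6, 49.1, 48.4, 48.2 and 46.8 in WT and at 48.9, 53.2, 49.7, 45.5 and 48.0 in KO, and these overlapped. The change at night was -0.23 ± 0.0428 (1.17-fold lower, edgeR adjusted p = 0.0095), and it passed without each library in turn (adjusted p at most 0.0351). Sgce was also lower at night than by day within KO (-0.20 ± 0.0427, adjusted p = 0.0513), and the interaction of genotype and time was -0.25 ± 0.0603 (adjusted p = 0.0588), neither of which passed with edgeR. Its partner Peg10, a retrotransposon-derived gene, was at 137 to 211 over all libraries and did not pass at any time.

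The time labels bear on this result. With the time field in place of the title, the change of Sgce at night was -0.08 (adjusted p = 0.918). It was -0.21 when the libraries with conflicting labels were left out, which leaves 2 in KO_night (adjusted p = 0.196), and -0.21 without WT_night 1, 2 and 3 (0.359). None of the 5 genes called at night passed under any of these 3 settings, and among all genes 4, 6 and 11 passed. Without WT_night 1, WT_night 3 or KO_night 3 alone, Sgce was the only listed gene that passed at night. Without KO_night 2 only Sgce and Calcr did, while 8 passed without WT_night 4 and 9 without KO_night 4. Over the fits without 1 library, 122 to 4355 of all genes passed at night. The share of all genes in each of these fits is not given here, so these counts are no result about the listed genes.

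Inpp5f (ENSMUSG00000042105, chromosome 7, 128611328 to 128696425) encodes a phosphoinositide phosphatase, and a shorter brain isoform is known to be paternally expressed. It stood at 121, 133, 131, 135 and 126 scaled CPM in WT_night and at 138, 152, 156, 130 and 150 in KO_night. KO_night 4 lay inside the WT range and the other KO_night libraries above it. By day the values were 141, 142, 138, 138 and 135 in WT and 144, 139, 148, 143 and 140 in KO. The change at night was 0.17 ± 0.0469 (1.12-fold, edgeR adjusted p = 0.0272), against 0.04 by day.

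Airn (ENSMUSG00000078247, chromosome 17, 12741311 to 12860136) is the noncoding RNA that silences Igf2r in cis on the paternal chromosome in many tissues, though neurons are known to escape this. It stood at 23.5, 20.8, 25.1, 18.6 and 18.3 in WT_night and 17.6, 16.4, 15.4, 20.4 and 17.5 in KO_night. Only KO_night 4 lay inside the WT range, and WT_night 1 and 3 were the highest of all 20 libraries. By day Airn was at 18.9, 20.05, 18.2, 17.6 and 18.6 in WT and at 18.7, 20.4, 21.1, 17.6 and 19.1 in KO. The change at night was -0.29 ± 0.0812 (1.22-fold lower, edgeR adjusted p = 0.0289). Igf2r, the gene of the receptor that clears insulin-like growth factor II, was at 61.1 to 66.1 in WT_night and 61.5 to 64.4 in KO_night, a change of -0.02 at night against 0.11 ± 0.0365 by day (adjusted p = 0.297).

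Kcnq1ot1 (ENSMUSG00000101609, chromosome 7, 143203458 to 143296549) is the unspliced noncoding RNA that silences the Kcnq1 cluster on the paternal chromosome. Its scaled CPM was 206, 184, 235, 174 and 202 in WT_night and 165, 131, 151, 197 and 167 in KO_night. KO_night 4, at 197, lay above WT_night 2 and 4, and the other KO_night libraries lay below all of WT_night. By day it was 190, 200, 184, 188 and 187 in WT and 167, 215, 198, 171 and 187 in KO. The change at night was -0.30 ± 0.0884 (1.23-fold lower, edgeR adjusted p = 0.0322). Cdkn1c, a gene of the cluster that this RNA silences, was at 4.05 ± 0.724 in WT_night and 4.02 ± 0.830 in KO_night (SD, n = 5), and with 149 counts per library on average its spread was wide. The counts of Cdkn1c may include reads of Gm44732 on the opposite strand.

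Libraries also differed in how levels ran with gene length, and the extremes of Kcnq1ot1 and Airn fell in libraries near the ends of that range. In each library the log2 level of 22149 genes, as the difference from the mean of all libraries, was fitted against the log2 of the gene span. The slope was highest in WT_night 3 (0.0296), followed by WT_night 1 (0.0170), and lowest in KO_night 2 (-0.0230) and KO_night 3 (-0.0143). Kcnq1ot1 was highest in WT_night 3 and lowest in KO_night 2, and Airn was highest in WT_night 3 and lowest in KO_night 3. Not every library followed. KO_night 4, with a slope of -0.0057 (rank 15 of 20), ranked 7 for Kcnq1ot1 at 197 and 5 for Airn at 20.4. How closely levels and slope went together over all 20 libraries was not measured. Sgce was lowest in KO_night 3, while Calcr was at 29.7 in WT_night 3 and at 31.5 and 37.2 in KO_night 2 and 3. With the trend over exonic length removed within each library, the change of Kcnq1ot1 at night was -0.03 ± 0.0446 (adjusted p = 0.737) and no longer passed. Sgce, Airn, Inpp5f and Calcr still passed, and Rian passed as well (0.15 ± 0.0469, adjusted p = 0.0444, against 0.02 without the correction). The share of all genes that passed in this fit is not given here, so these calls have no background to be read against. Kcnq1ot1 has the longest exon of the list (93.1 kb), so it stands at the far end of that fit. The correction used exonic length, whereas the slopes above are on gene span. Airn has 3.6 kb of exon in a span of 118.8 kb. In KO_night 3 the slope was 0.00163 on exonic length against -0.0143 on span. That a gene still passed is therefore no test of the trend with span, whose removal was not tried.

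**Figure D4:**
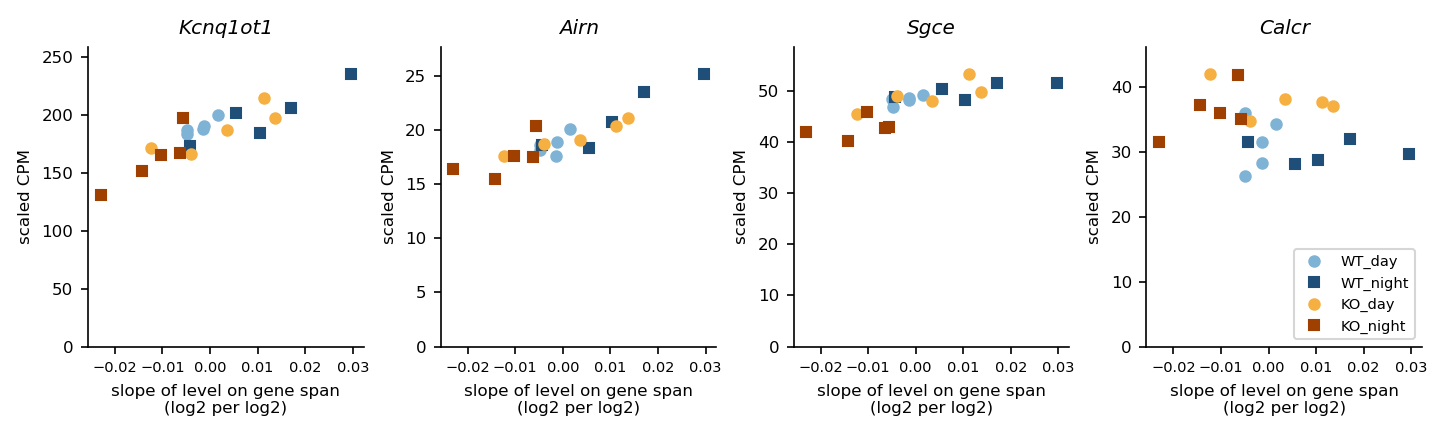
Scaled CPM of 4 listed genes in each library against the slope of that library's log2 levels on log2 gene span (22149 genes), coloured by group. Kcnq1ot1 and Airn are highest in WT_night 3 (slope 0.0296) and low in KO_night 2 and 3, Sgce is lowest in these libraries, and Calcr is at 29.7 in WT_night 3 and at 31.5 and 37.2 in KO_night 2 and 3.

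Markers of other tissues moved at night too. Of the hypothalamic neuron markers 10 of 11 tested were higher in KO_night and 2 rose (sums 766 to 1014 in WT_night and 1054 to 1263 in KO_night, no overlap). Meningeal and fibroblast markers were lower in 9 of 9, with 1 that fell (89.5 to 138 against 55.4 to 88.1), choroid plexus markers in 7 of 8, with 2 that fell (66.2 to 76.4 against 51.1 to 60.4), and oligodendrocyte markers were higher in 6 of 6, with 2 that rose (1931 to 2390 against 2086 to 2805). Thalamic markers summed to 468 to 714 in WT_night and 415 to 520 in KO_night, although 4 of 6 were higher in KO_night (median change 0.35), with 1 that rose and 1 that fell. Their part in the changes of the imprinted genes was not tested.

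**Figure D5:**
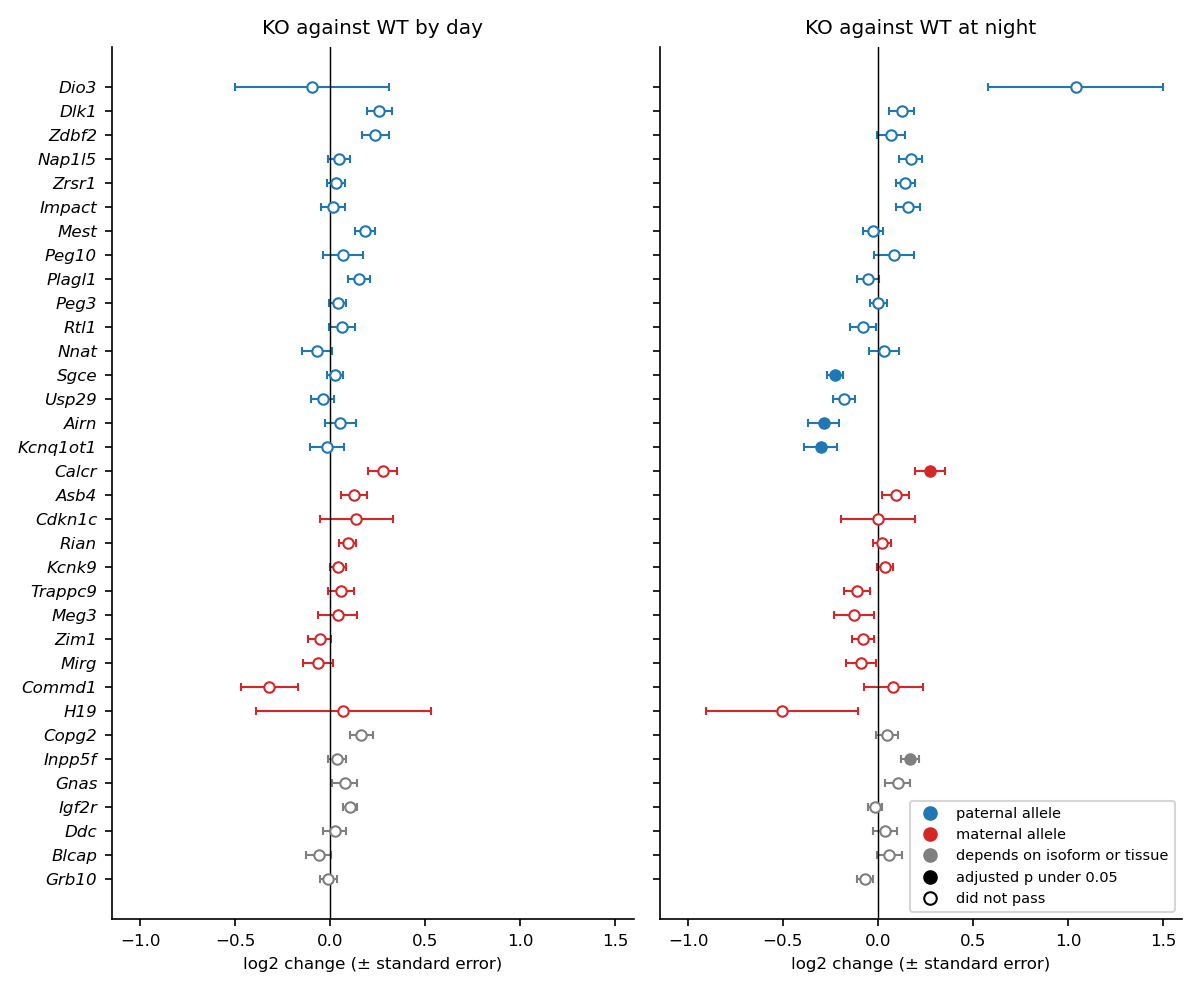
Log2 change of KO against WT by day (left) and at night (right) with its standard error for the 34 tested genes, coloured by expressed allele, with filled points for an edgeR adjusted p under 0.05. No point is filled by day, and at night Sgce, Airn and Kcnq1ot1 are filled below 0 and Calcr and Inpp5f above 0, while Dio3 and H19 have the widest errors.

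Within the Dlk1-Dio3 cluster of chromosome 12 the maternally expressed noncoding RNAs did not pass, apart from Rian at night with the length trend removed, as given above. Their averaged changes were -0.04 ± 0.0737 for Meg3, 0.06 ± 0.0329 for Rian, which hosts small nucleolar RNAs, and -0.08 ± 0.0555 for Mirg, which hosts microRNAs, with adjusted p values of 0.792, 0.346 and 0.475 by edgeR. Meg3 varied most, from 771 in KO_night 2 to 1262 in KO_night 4, and Rian ran from 646 to 784. Rtl1, the paternally expressed retrotransposon-derived gene, gave -0.01 ± 0.0483 (adjusted p = 0.952).

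In the Peg3 cluster the neighbours that share the promoter printed above gave 0.00148 for Peg3 at night and -0.18 ± 0.0591 for Usp29, a deubiquitinase gene (edgeR adjusted p = 0.0509, and 0.0206 with DESeq2). Whether these differ was not tested. Usp29 was at 339.9, 328, 381, 301 and 308 scaled CPM in WT_night and at 284, 274, 290.04, 299 and 318 in KO_night, where KO_night 5 alone lay inside the WT range. The counts of Usp29 may include reads of Zim3, which overlaps it on the opposite strand. The maternally expressed zinc finger gene Zim1 beside them gave -0.08 ± 0.0596 at night (adjusted p = 0.384). Zrsr1, a splicing factor gene inside Commd1, and Nap1l5 were also close to the threshold at night, at 0.14 ± 0.0492 (adjusted p = 0.0564) and 0.17 ± 0.0592 (0.0584), and both passed with DESeq2 (0.0426 and 0.0295). These 3 genes were named after their values were seen. In the Peg10 cluster Asb4, a maternally expressed gene of hypothalamic feeding neurons, gave 0.11 ± 0.0498 averaged over both times (adjusted p = 0.230). Of the other listed genes of the cluster, Calcr and Peg10 (0.08 ± 0.0744) went the same way and Sgce (-0.10 ± 0.0302) the other.

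Do these genes differ between night and day? In WT none of the 34 passed with edgeR, where 0.275% of all genes did, 9 had an unadjusted p under 0.05 (15.9% of all genes did) and 0 passed with DESeq2 (1.84% of all genes). The smallest adjusted p was that of Igf2r (0.11 ± 0.0365, 0.170), and the largest changes were those of H19 at 1.005 ± 0.421 (0.254), Dio3 at -0.93 ± 0.463 (0.332) and Commd1 at -0.34 ± 0.153 (0.283). H19 had 12, 6, 9, 4 and 9 counts in WT_day and 18, 13, 7, 24 and 11 in WT_night, so the groups overlapped. Dio3 had 5, 6, 16, 5 and 17 counts in WT_day and 2, 9, 4, 5 and 3 in WT_night. The largest values of WT_day were WT_day 3 and 5, and the others lay within the range of WT_night. Commd1 had 46, 56, 65, 49 and 57 counts in WT_day and 31, 54, 41, 38 and 32 in WT_night. In KO none of the 34 passed with edgeR, where 0.0721% of all genes did, 4 had an unadjusted p under 0.05 (17.7% of all genes did) and 1, Sgce, passed with DESeq2, near the 2.66% of all genes that did. There H19 gave 0.43, Dio3 0.21 and Commd1 0.06. H19 had 9, 12, 0, 12 and 10 counts in KO_day and 14, 16, 9, 9 and 6 in KO_night. Dio3 had 8, 10, 5, 7 and 17 and 6, 9, 19, 6 and 10, and Commd1 had 45, 42, 41, 43 and 52 and 65, 46, 42, 34 and 32. In KO the day and night values of H19, Dio3 and Commd1 overlapped. In WT those of Peg3 did not, at 936 to 1000 scaled CPM by day and 1006 to 1093 at night. Peg3 did not pass (0.10 ± 0.0457, edgeR adjusted p = 0.272), and how many of all genes separate in this way was not counted.

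No interaction of genotype and time passed with edgeR, for the 34 genes or for any of the 22181 genes tested (0%), while 6 of the 34 had an unadjusted p under 0.05 (22.1% of all genes did) and 2, Sgce and Airn, passed with DESeq2, near the 5.48% of all genes that did. After Sgce the smallest adjusted p values were those of Airn at -0.34 ± 0.114 (0.104) and Mest at -0.21 ± 0.0739 (0.116). That the KO effect differed between day and night was therefore not shown with edgeR for any listed gene, Kcnq1ot1 (-0.28 ± 0.125, adjusted p = 0.185) included.

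A second list of 38 further imprinted genes, 31 of them tested, was read beside these. Averaged over both times 1 of them fell (3.23%, where 1.31% of all genes passed), Sfmbt2, a chromatin gene, by 0.21 ± 0.0504 (edgeR adjusted p = 0.0372). At night 5 passed (16.1%), near the 11.9% of all genes that did. Tssc4 rose by 0.27 ± 0.0689 (adjusted p = 0.0213) and Klf14 by 1.44 ± 0.399 (0.0266) from a mean of 0.196 scaled CPM, while Sfmbt2 fell by 0.26 ± 0.0714 (0.0256), Kcnq1 by 0.32 ± 0.0884 (0.0267) and Slc22a2 by 0.99 ± 0.32 (0.0461) from a mean of 0.509. The counts of Kcnq1 equal those of Kcnq1ot1 to within the ratios given above, so these are not separate results. Between night and day in WT 1 of the 31 passed (3.23%, where 0.275% of all genes did), Gab1, which rose by 0.25 ± 0.0534 (adjusted p = 0.0489).

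Genes of the same cluster were also compared across the 20 libraries after the group means were removed. Of 8 pairs of genes in the same cluster, only Mest and Copg2 went together beyond the threshold (Pearson r = 0.785, permutation p = 2e-05, adjusted over the 8 pairs 1.6e-04, and Spearman rho = 0.598, permutation p = 0.00617, adjusted 0.0494). Without the 2 libraries farthest from the median of Mest r was 0.732. These genes overlap, and how many reads they share was not measured. The adjusted p of the other 7 pairs was 0.297 or more by either measure, with r from -0.291 for Dlk1 and Meg3 to 0.398 for Asb4 and Calcr. Igf2 and H19 could not be compared, since Igf2 was listed at 0.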

How the data were processed

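RNA was measured by paired-end, strand-specific sequencing of 20 libraries, per the labels' protocols. The authors deposited raw counts per gene, made with HISAT2 and featureCounts on mm10 per the submitters' processing notes, and no version, annotation or strand setting is given in the sources used here. Genes were matched to GENCODE M21 (53706 of 53801). Members and lists were chosen with earlier results of these data known. edgeR 4.0.16 in R 4.3.3 (quasi-likelihood F-test, TMM scaling with factors 0.945 to 1.08, filterByExpr with a minimum count of 10) was fitted to 4 group means over all 20 libraries and 22181 genes, with Benjamini-Hochberg adjustment over these genes, and was tested on simulated data. Scaled CPM uses the same factors. DESeq2 1.42.0, other scaling, filters, time labels and libraries were tried as alternatives. Pairs of genes in a cluster were compared by permutation (100000 resamples, numpy 2.4.6). A limit of 3 counts covers counting error only. Genes that passed are given in every library, as are, of those that passed nowhere, the 3 with the largest averaged change and the 3 with the largest night-against-day change.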

Additional observations from a re-analysis of the deposited data

Results flagged for a closer look

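Among the 136 sets of 5 libraries formed by 34 genes and 4 groups, 4 held a library far from the others, where chance would flag about 1 in 20, or 6.8. Rtl1 stood at 45.5 scaled CPM in KO_night 4, where the nearest other library was at 38.9 and the lowest at 37.2. Peg3 stood at 936 in WT_day 5, below the others at 985 to 1000. Zim1 stood at 55.7 in KO_day 5, below the others at 61.1 to 63.3. Copg2 stood at 322 in KO_night 5, above the others at 269 to 277. These belong to 4 different libraries.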

How the results depend on the processing

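Each count of listed genes that passed was recomputed under 9 or 10 other settings and without each library in turn. Averaged over both times 2 passed, and 1 passed with the time field in place of the title or with genotype alone, 0 without WT_night 1, 2 and 3, and 4 with DESeq2. Leaving out 1 library gave 1 to 3, and 1 without the library labelled WT_day 3. For all genes the averaged count was 291, against 30 with the time field, 37 with genotype alone and 19 without WT_night 1, 2 and 3. It was 1046 with DESeq2 and 47 to 1265 without 1 library. By day 0 passed, against 1 with the time field, 2 without the 6 libraries of conflicting time labels, 2 with DESeq2, and 1 with agreeing labels and without the library labelled WT_day 3, an alternative chosen after seeing the data; leaving out 1 library gave 0 to 1. At night 5 passed, against 3 with the replicate block, 8 with DESeq2, and 0 with the time field, with agreeing labels (with or without WT_day 3) and without WT_night 1, 2 and 3. Leaving out 1 library gave 1 (without WT_night 1, WT_night 3 or KO_night 3) to 9 (without KO_night 4). Between night and day 0 passed in WT under every setting run, and in KO 0 passed, against 1 without WT_night 1, 2 and 3, 1 with DESeq2 and 0 to 1 without 1 library. For the interaction 0 passed, against 2 with DESeq2 and 0 to 2 without 1 library. The count of pairs stayed at 1. For all genes at night the count was 2649, against 3529 with DESeq2, 1689 with the replicate block, 4, 6 and 11 with the time field, agreeing labels and without WT_night 1, 2 and 3, and 122 to 4355 without 1 library. By day the count for all genes was 25, against 149 with the time field, 89 with agreeing labels and 190 with DESeq2. It was 55 with agreeing labels and without WT_day 3, and 15 to 73 without 1 library. Between night and day in KO it was 16, against 138 without WT_night 1, 2 and 3, 591 with DESeq2 and 0 to 328 without 1 library. For the interaction it was 0, against 1215 with DESeq2 and 0 to 1555 without 1 library. The cause of these shifts was not tested. The replicate numbers do not pair the libraries: deviations of 30 same-number pairs correlated at -0.167 to 0.303, with 3 above 0.1, and 4 of 20 libraries matched best with their own number. With the replicate block Airn (-0.28, adjusted p = 0.0509) and Kcnq1ot1 (-0.30, 0.0588) did not pass at night. Signs turned for values that had not passed. With the time field these were Sgce by day (-0.108), night against day in KO (0.0550) and in the interaction (0.0271), Airn by day (-0.120) and in the interaction (0.0128), and night against day in KO of H19 (-0.0669), Dio3 (-0.182) and Commd1 (-0.216). With agreeing labels Commd1 turned to -0.208 (-0.215 also without WT_day 3) and Sgce by day to -0.0145 (-0.00861). Without 1 library Sgce by day ran from -0.000834 (KO_day 2) to 0.0628, Kcnq1ot1 by day from -0.0657 to 0.0263 (0.00624 without WT_day 2, 0.0263 without KO_day 1 and 0.0255 without KO_day 4), Dio3 in KO from -0.134 (KO_night 3) to 0.441, Commd1 in KO from -0.0398 (KO_night 1) to 0.112 and Rian at night from -0.0101 (WT_night 2) to 0.0352 (-0.00801 without WT_night 1, 2 and 3). Another scaling moved the median change of all genes by less than 0.1. Depth limits H19 and Dio3, at about 10 counts per library.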
